A study of Mus musculus with 15 samples.

Results

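The SOCS family comprises 8 genes, Cish and Socs1 to Socs7, which encode suppressors of cytokine signalling. All 8 were taken by symbol from the 55335 genes for which expression values were deposited, and each symbol matched a single row. The values come from tumor-associated macrophages (TAMs), sorted as CD11b+ F4/80+ cells from hepatocellular carcinoma (HCC) that grew in the liver of C57BL/6 mice after injection of Hepa1-6 cells, a mouse hepatoma line. The 3 groups were TAMs from tumors of control cells, of cells carrying lentiviral miR-144 and of cells carrying lentiviral miR-451a, with 5 samples each and 15 in all. The miRNAs were overexpressed in the cancer cells, not in the TAMs, and the labels give neither the age of the mice nor any treatment. They do not say that the samples of a group came from separate mice, so p-values measure the spread between these samples, which may be technical. The legend of the study gives fewer replicates for its RNA-seq panels than the samples per group analysed here, and does not say which were used.

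Cytokine receptors signal through Janus kinases (JAKs), which phosphorylate STAT transcription factors. STATs switch on SOCS genes, and the proteins made from them bind receptors or JAKs through an SH2 domain and recruit a ubiquitin ligase through a SOCS box, which closes a negative feedback loop. In macrophages, SOCS1 is best known as a brake on interferon signalling, SOCS3 as a brake on signalling through the IL-6 receptor subunit gp130, and CIS (the product of Cish) and SOCS2 as STAT5 targets that restrain STAT5-coupled receptors.

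Cish, Socs1 and Socs2 were lower in TAMs of both miRNA groups than in control TAMs, while Socs3 and Socs7 were higher. Mean FPKM (fragments per kilobase of transcript, scaled to the mapped fragments of the sample) of Cish in control TAMs was 61.4 times the miR-144 mean and 69.2 times the miR-451a mean, and that of Socs1 was 19.5 and 17.8 times these means. In bulk samples such as these, fewer cells of a type and less RNA per cell cannot be told apart. Socs3 was 1.90 and 2.04 times the control mean. Socs4, Socs5 and Socs6 differed little or not detectably, and no member differed detectably between the miRNA groups. The control samples are shared by both comparisons with control, so their values are given side by side and are not independent.

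Group differences were tested with limma on log2(FPKM + 1) over 29540 genes, with Benjamini-Hochberg adjustment and a threshold of 0.05 for the adjusted p. Adding 1 compresses the differences of genes with low FPKM. With miR-144, 4 members were higher and 3 were lower than control, where 23.1% of all genes tested were higher and 9.65% were lower. With miR-451a, 3 members were higher and 3 were lower, where 24.5% of all genes were higher and 9.69% were lower. Among 11419 expressed genes (mean FPKM of 1 or more), which include 7 of the 8 members (all but Socs2), 47.1% were higher and 20.1% were lower with miR-144, and 48.1% were higher and 20.3% were lower with miR-451a. After median centring, 2 members were higher and 3 were lower in each comparison. For 5 of the 8 members, Cish, Socs1, Socs2, Socs3 and Socs7, the samples of either miRNA group did not overlap the control samples. The same held for 26.9% of all genes and 53.9% of expressed genes in the miR-144 comparison, and for 27.9% and 55.2% in the miR-451a comparison, so a count of this kind is common in these data. Expressed genes had a median log2 fold change of 0.13 (miR-144) and 0.14 (miR-451a), and changes of that size in a member are therefore no larger than the shift of the typical gene.

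**Figure D1:**
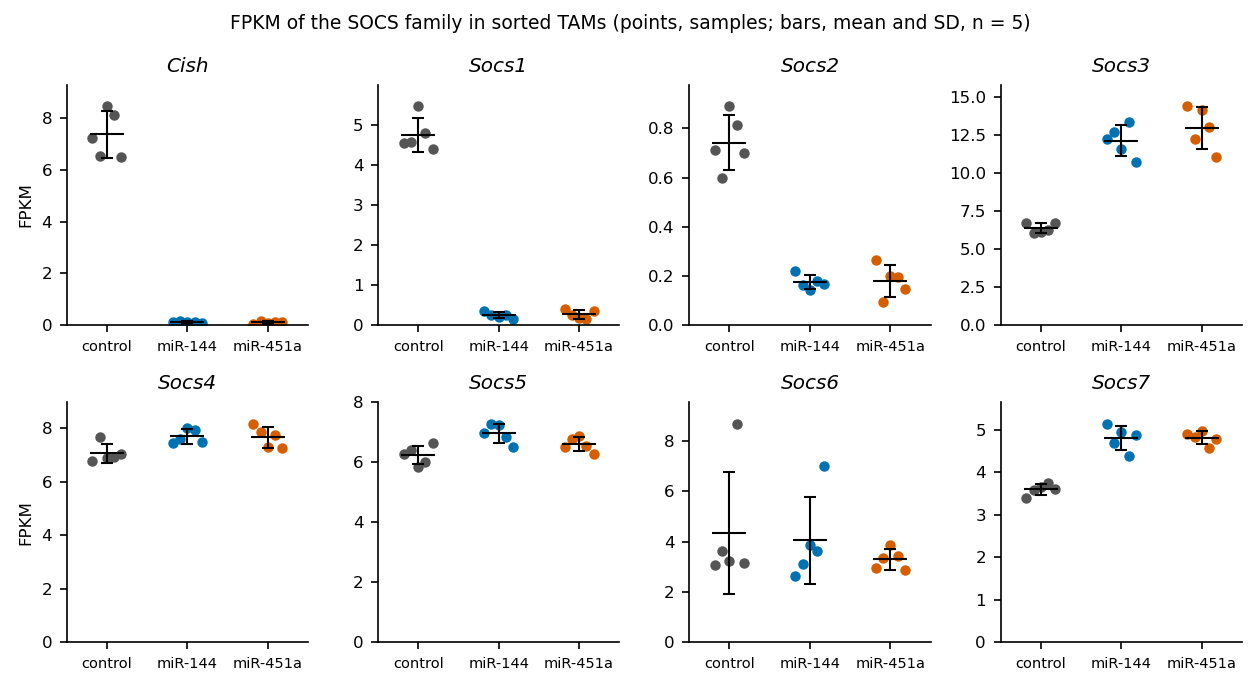
FPKM of each SOCS family gene (vertical axes from 0, a scale for each gene) in control, miR-144 and miR-451a TAMs, with a point for each sample and bars for the mean and SD of 5 samples. Cish, Socs1 and Socs2 lie lower and Socs3 and Socs7 higher in both miRNA groups without overlap with control, and Socs6 has a high sample in the control and in the miR-144 group.

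Sequences that bear on these members are shown first, and they come from RefSeq on GRCm38.p6. The miRNAs that define the groups are given to show that they carry different seeds (bases 2 to 8, in capitals). They lie close together on the plus strand of chromosome 11, at chr11:78073047-78073066 for miR-144-3p and chr11:78073186-78073207 for miR-451a.
miR-144-3p: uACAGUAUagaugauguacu
miR-451a: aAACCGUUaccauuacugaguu

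Promoter windows of 300 bases, 250 before and 50 after a RefSeq start site, were found for 4 of the 8 members (Cish, Socs1, Socs3 and Socs4). Those of Cish, Socs1 and Socs3 are printed because these genes changed most among the 4. Matches to the STAT palindrome or the interferon response form are in capitals. The Cish window is chr9:107296409-107296708 (plus strand), the Socs1 window chr16:10785487-10785786 (minus strand) and the Socs3 window chr11:117969317-117969616 (minus strand). Those of Cish and Socs3 lie wholly inside the gene spans given below, and start sites further upstream were not searched.
Cish: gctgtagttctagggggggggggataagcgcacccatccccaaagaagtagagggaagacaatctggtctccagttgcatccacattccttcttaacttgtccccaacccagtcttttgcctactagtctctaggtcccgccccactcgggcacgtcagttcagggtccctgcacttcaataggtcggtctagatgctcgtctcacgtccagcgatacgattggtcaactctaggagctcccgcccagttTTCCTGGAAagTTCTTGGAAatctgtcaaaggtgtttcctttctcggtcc
Socs1: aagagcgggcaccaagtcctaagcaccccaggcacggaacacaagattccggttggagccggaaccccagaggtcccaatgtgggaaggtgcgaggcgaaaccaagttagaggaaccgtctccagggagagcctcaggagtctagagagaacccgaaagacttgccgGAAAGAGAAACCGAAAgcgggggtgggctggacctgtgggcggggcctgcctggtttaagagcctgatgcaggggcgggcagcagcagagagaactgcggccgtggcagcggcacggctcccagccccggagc
Socs3: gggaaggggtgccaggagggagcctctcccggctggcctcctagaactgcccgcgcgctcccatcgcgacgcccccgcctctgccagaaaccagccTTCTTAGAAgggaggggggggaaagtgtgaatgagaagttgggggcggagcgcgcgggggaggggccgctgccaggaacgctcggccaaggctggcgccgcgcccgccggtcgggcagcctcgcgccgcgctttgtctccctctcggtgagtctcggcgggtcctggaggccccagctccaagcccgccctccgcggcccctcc

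Motifs were searched on both strands, with the start site counted as base 1. TTCNNNGAA, the palindrome bound by most STAT dimers, occurred in the Cish window from bases 1 and 12 and in the Socs3 window from base -154. Of 32851 promoter windows, 8.30% hold at least 1 such match and 0.457% hold 2 or more. GAAA followed by 2 bases and a second GAAA, a form of the interferon response element, occurred in the Socs1 window from bases -83 and -77, in matches that overlap each other, and 3.44% of all windows hold it. TTC and GAA with a gap of 4 bases (a form preferred by STAT6) and TGANTCA (AP-1) were not found in these 4 windows and occur in 6.95% and 7.81% of all windows. GGG and CC with a gap of 5 bases, a loose NF-kB form that 50.8% of all windows hold, occurred in all 4. The Socs4 window held none of the other motifs. A match describes letters only, and binding was not measured.

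**Figure D2:**
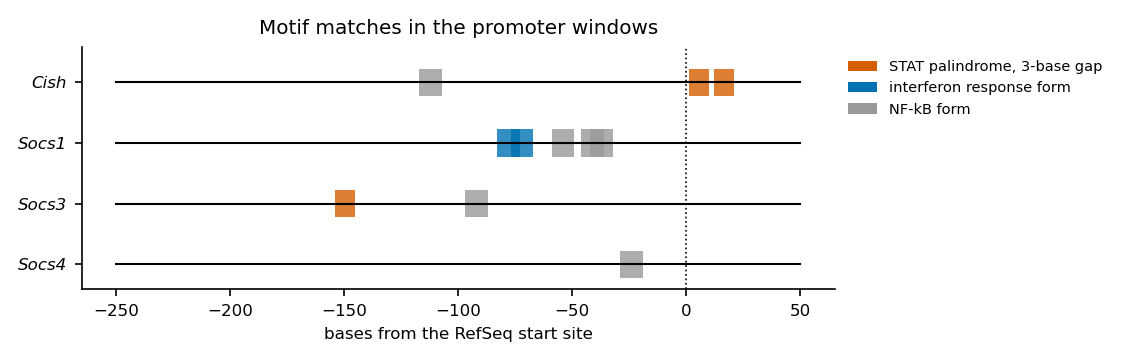
Positions of motif matches in the promoter windows of Cish, Socs1, Socs3 and Socs4, in bases from the RefSeq start site (horizontal axis, dotted line at the start). Colours stand for the STAT palindrome, the interferon response form and the NF-kB form. Cish carries its STAT palindromes at bases 1 and 12, Socs3 at base -154, and Socs1 carries the interferon response form at bases -83 and -77.

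Cish (ENSMUSG00000032578) lies on the plus strand of chromosome 9 from 107296026 to 107302784 in the GENCODE M21 annotation of GRCm38, whose coordinates are used for all members. Its FPKM was 7.26, 6.54, 8.46, 8.15 and 6.49 in control samples 1 to 5. It was 0.12, 0.162, 0.127, 0.121 and 0.07 in the miR-144 samples and 0.0376, 0.153, 0.0951, 0.116 and 0.132 in the miR-451a samples. Every control sample was far above every miRNA sample, and Cish went from the member with the highest mean in control TAMs to that with the lowest in both miRNA groups. The log2 fold change was -2.90 with miR-144 (SE 0.07, adjusted p = 2.50e-13) and -2.92 with miR-451a (SE 0.07, adjusted p = 2.38e-13) by limma. Of the 11419 expressed genes, 42 (miR-144) and 44 (miR-451a) had a lower log2 fold change.

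The low Cish values rest on few fragments. Sequencing depth, read from the steps between low FPKM values, was 15.5 to 30.3 M fragments per sample, with 34.4% to 46.7% of the low values on a step, so it is approximate. At that depth and with the longest coding transcript (2850 bases), Cish corresponds to 442 to 586 fragments per control sample, 3.99 to 9.30 per miR-144 sample and 1.66 to 9.99 per miR-451a sample. Sample 1 of the miR-451a group, at 0.0376 FPKM, lies under the floor of 3 fragments. These figures bear on counting error only. Cish shares exonic bases with the genes Gm17040 (261 bases) and Gm17041 (479 bases) on the opposite strand, and the sources do not say whether strand was used. Neither exceeded 0.0733 FPKM in any control sample, and both were listed at 0 in all miRNA samples.

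Socs1 (ENSMUSG00000038037, chromosome 16, 10782240 to 10785536, minus strand) had an FPKM of 4.54, 4.56, 5.45, 4.79 and 4.39 in the control samples. Its values were 0.347, 0.262, 0.195, 0.255 and 0.155 with miR-144 and 0.397, 0.26, 0.178, 0.147 and 0.352 with miR-451a. No miRNA sample reached the range of the control samples. The log2 fold changes were -2.21 and -2.18 (SE 0.07 for each, limma adjusted p = 6.30e-12 and 6.23e-12), with 72 and 75 expressed genes lower. Fragments implied for Socs1 were 305 to 385 per control sample and 9.0 to 27.4 per miRNA sample.

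Socs2 (ENSMUSG00000020027, chromosome 10, 95385362 to 95417180, minus strand), a regulator of growth hormone signalling, was the member with the lowest mean in control TAMs. Its FPKM was 0.711, 0.598, 0.889, 0.812 and 0.701 in the control samples, 0.221, 0.165, 0.142, 0.179 and 0.168 with miR-144 and 0.266, 0.0945, 0.2, 0.195 and 0.146 with miR-451a. All control samples were above all miRNA samples, and the control mean was 4.24 times the miR-144 mean and 4.12 times the miR-451a mean. These ratios rest on few fragments, 36.7 to 48.0 implied per control sample, 6.55 to 13.3 per miR-144 sample and 4.49 to 13.2 per miR-451a sample. On the log2(FPKM + 1) scale the changes were -0.57 and -0.56 (SE 0.05 for each, limma adjusted p = 1.94e-07 and 2.03e-07). Other genes hold 7.23% of the 50-base words in the longest Socs2 transcript, most of them in Gm9847, which was listed at 0.274 to 0.489 FPKM in control and at 0 to 0.198 FPKM in the miRNA groups, so Socs2 values are uncertain to that extent.

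Socs3 (ENSMUSG00000053113, chromosome 11, 117966079 to 117970047, minus strand) had an FPKM of 6.69, 6.02, 6.11, 6.22 and 6.71 in the control samples. It was 12.2, 12.7, 11.5, 13.4 and 10.7 with miR-144 and 14.4, 12.2, 14.1, 13.0 and 11.0 with miR-451a. Each miRNA sample was above every control sample, and Socs3 was the member with the highest mean in both miRNA groups. The log2 fold changes were 0.83 (SE 0.07, limma adjusted p = 1.98e-07) and 0.92 (SE 0.07, limma adjusted p = 6.20e-08).

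Socs7 (ENSMUSG00000038485, chromosome 11, 97362551 to 97398542, plus strand) is linked to insulin receptor signalling. Its FPKM was 3.39, 3.59, 3.66, 3.74 and 3.62 in the control samples, 5.14, 4.69, 4.94, 4.37 and 4.87 with miR-144 and 4.9, 4.83, 4.98, 4.57 and 4.78 with miR-451a. Every miRNA sample was above the control samples, and the means were 1.34 times control in each group. The log2 fold changes were 0.33 and 0.34 (SE 0.04 for each, limma adjusted p = 3.52e-06 and 2.97e-06), above the shift of the typical expressed gene. They were 0.21 and 0.20 after median centring and 0.20 and 0.19 after quantile normalization, and passed there too.

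**Figure D3:**
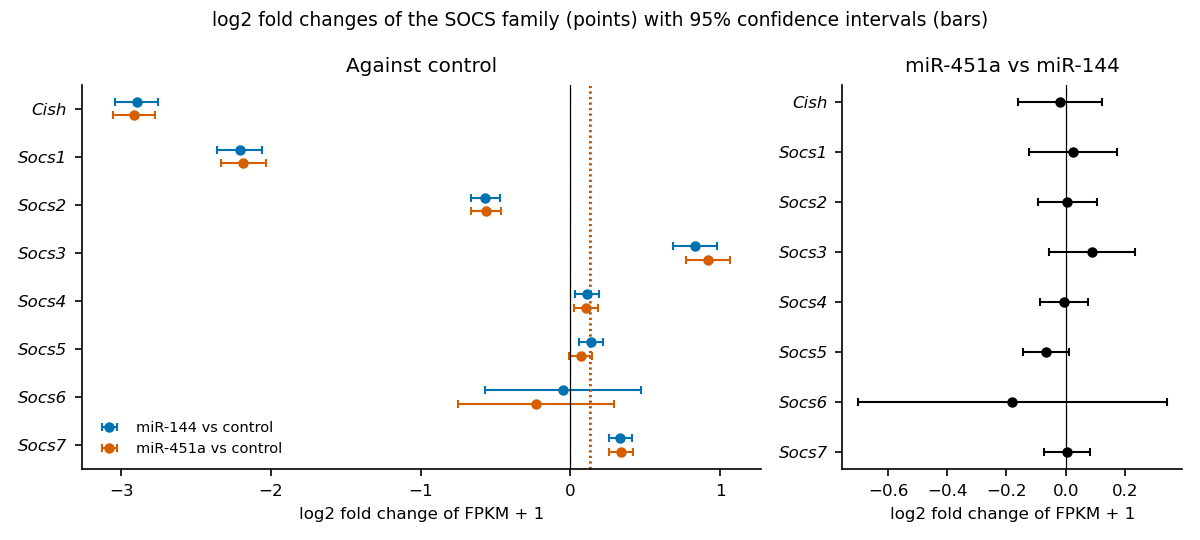
log2 fold changes of FPKM + 1 (horizontal axes) with 95% confidence intervals for miR-144 and miR-451a TAMs against control (left) and for miR-451a against miR-144 (right). Dotted lines mark the median of expressed genes, 0.13 and 0.14. Cish and Socs1 lie near -2.90 and -2.21, Socs3 lies above and Socs4 and Socs5 near the dotted lines, and all intervals on the right include 0.

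Socs4 (ENSMUSG00000048379, chromosome 14, 47276931 to 47296102, plus strand) and Socs5 (ENSMUSG00000037104, chromosome 17, 87107679 to 87137839, plus strand) are close relatives with long N-terminal regions, linked to signalling by the epidermal growth factor receptor. Socs4 FPKM was 6.76, 7.66, 6.9, 6.93 and 7.06 in control, 7.45, 7.6, 8.03, 7.95 and 7.47 with miR-144 and 8.18, 7.87, 7.3, 7.75 and 7.25 with miR-451a. Socs5 FPKM was 6.28, 6.42, 5.84, 6.01 and 6.63 in control, 6.96, 7.28, 7.22, 6.83 and 6.51 with miR-144 and 6.51, 6.78, 6.88, 6.54 and 6.27 with miR-451a. For both genes the sample ranges overlapped. The log2 fold changes of Socs4, 0.11 and 0.10 (limma adjusted p = 0.0348 and 0.0424), passed the threshold but turned to -0.03 and -0.04 after median centring and to -0.02 and -0.04 after quantile normalization, where they did not pass. That of Socs5 was 0.14 with miR-144 (limma adjusted p = 0.00828), which became 0.00 after median centring, and 0.07 with miR-451a (limma adjusted p = 0.170), which turned to -0.07 under either scaling.

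Socs6 (ENSMUSG00000056153, chromosome 18, 88665224 to 88927481, minus strand) is linked to signalling by receptor tyrosine kinases such as KIT. Its FPKM was 3.07, 3.64, 3.22, 8.68 and 3.14 in control, 2.62, 3.11, 3.87, 3.63 and 7.01 with miR-144 and 2.96, 3.36, 3.88, 3.41 and 2.86 with miR-451a. Sample 4 of the control group and sample 5 of the miR-144 group stood far above the others of their group, and the remaining samples of all groups overlapped. The log2 fold changes were -0.05 (95% interval -0.57 to 0.47, limma adjusted p = 0.942) and -0.23 (95% interval -0.75 to 0.29, limma adjusted p = 0.526). Without these 2 samples, a choice made after seeing the data, both were 0.01. Of its 50-base words, 11.7% occur in other genes, most of them in Gm9449, which was at 4.59 FPKM in the control sample and 2.59 in the miR-144 sample.

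Between the miRNA groups no member passed the test, and none had an unadjusted p under 0.05. The smallest unadjusted p was 0.0858 for Socs5, and limma adjusted p ranged from 0.909 to 1. Over all genes limma called 0% as well, in either filter. Of 29540 genes, 1459 had an unadjusted p under 0.05, about the share expected with no group difference. The 95% interval of the log2 difference, miR-451a minus miR-144, was -0.16 to 0.12 for Cish, -0.12 to 0.17 for Socs1, -0.09 to 0.10 for Socs2 and -0.06 to 0.24 for Socs3. It was -0.09 to 0.07 for Socs4, -0.15 to 0.01 for Socs5, -0.70 to 0.34 for Socs6 and -0.07 to 0.08 for Socs7. Differences within these intervals were not detectable with 5 samples per group.

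The order of the levels, which FPKM allows because it is divided by length, changed with the groups. In control TAMs the means fell in the order Cish (7.38 ± 0.905 FPKM, SD, n = 5), Socs4 (7.06 ± 0.350), Socs3 (6.35 ± 0.327), Socs5 (6.24 ± 0.315), Socs1 (4.75 ± 0.421), Socs6 (4.35 ± 2.43), Socs7 (3.6 ± 0.128) and Socs2 (0.742 ± 0.112). The ranges of samples overlapped for the neighbours Cish and Socs4, Socs3 and Socs5, Socs1 and Socs6, and Socs6 and Socs7. In both miRNA groups the order was Socs3, Socs4, Socs5, Socs7, Socs6, Socs1, Socs2 and Cish. There Socs3 stood apart from Socs4 without overlap, at 12.1 ± 1.01 FPKM (SD, n = 5) with miR-144 and 12.9 ± 1.38 with miR-451a, whereas the ranges of Socs1, Socs2 and Cish overlapped from neighbour to neighbour, as did those of Socs7 and Socs6 with miR-144.

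Summed over the 8 members, FPKM was 40.5 ± 2.82 (SD, n = 5) in control TAMs, 36.1 ± 0.741 with miR-144 and 35.9 ± 1.97 with miR-451a. Cish, Socs1 and Socs2 made up 31.8% ± 2.81 of this sum in control TAMs, 1.49% ± 0.344 with miR-144 and 1.55% ± 0.319 with miR-451a. Socs3 alone made up 15.8% ± 1.54, 33.5% ± 2.98 and 36.0% ± 1.98. The ratio of Socs3 to Socs1 FPKM ranged from 1.12 to 1.53 over control samples, from 35.1 to 69.3 with miR-144 and from 31.4 to 88.1 with miR-451a.

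**Figure D4:**
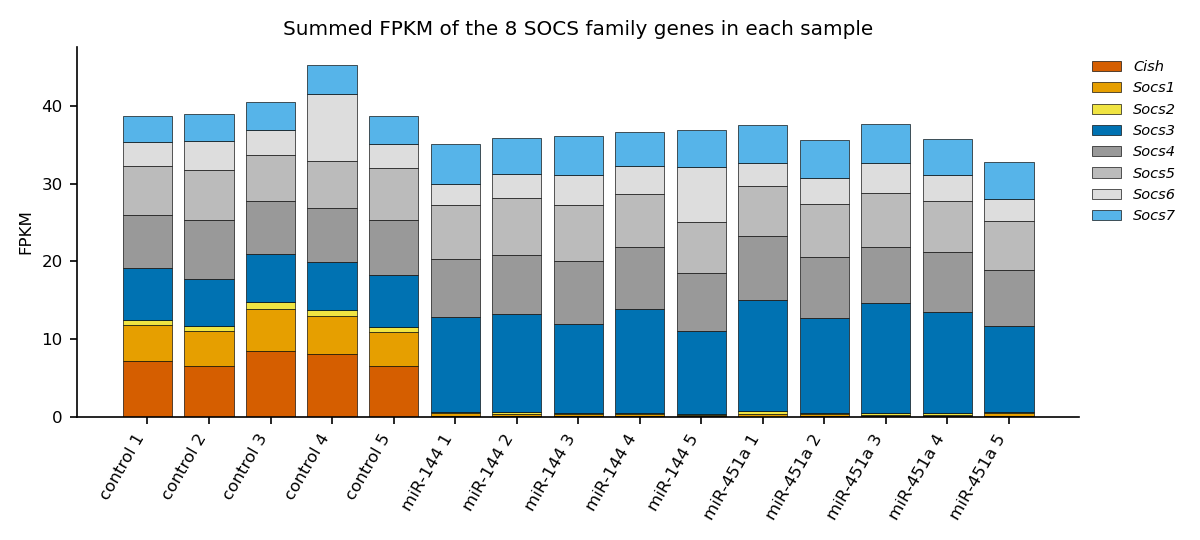
Summed FPKM of the SOCS family in each of the 15 samples (vertical axis from 0), split by gene in colours. Cish, Socs1 and Socs2 at the foot of the bars take 31.8% of the sum in control TAMs and 1.49% and 1.55% in the miRNA groups, where Socs3 takes 33.5% and 36.0%.

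The rest of the pathway, together with immediate early genes that tissue dissociation can raise, was read from 10 lists with 123 distinct genes. Of these genes, 117 were above 0. With miR-144, 57 (48.7%) were higher and 29 (24.8%) lower than control, beside 23.1% and 9.65% of all genes above 0. With miR-451a, 58 (49.6%) were higher and 28 (23.9%) lower, beside 24.5% and 9.69%. Among the 98 list genes that were expressed, 53 (54.1%) were higher and 28 (28.6%) lower in each comparison, beside 47.1% and 20.1% of expressed genes with miR-144 and 48.1% and 20.3% with miR-451a. No list was tested against other genes. After median centring the splits were 47 higher and 35 lower, and 49 higher and 36 lower. The median log2 fold changes with miR-144 and with miR-451a were 0.28 and 0.29 for STAT factors, 0.19 and 0.20 for Janus kinases, 0.26 and 0.32 for receptors and 0.20 and 0.18 for other negative regulators. They were 0.22 and 0.38 for STAT3 response genes, 0.06 and 0.05 for ligands, -0.06 and -0.09 for partners of the SOCS box, -0.07 in both for STAT5 response genes and -0.15 in both for immediate early genes, beside 0.01 and 0.02 over all genes tested and 0.13 and 0.14 over expressed genes. From each list the up to 4 genes with the highest mean were named.

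Among the 4 Janus kinases, 3 were higher and 1 lower with miR-144, and 2 were higher and 1 lower with miR-451a. The lower one was Jak2, the kinase of the GM-CSF, growth hormone and interferon gamma receptors, at 22.7 ± 1.09 FPKM (SD, n = 5) in control, 10.1 ± 0.494 with miR-144 and 10.6 ± 0.536 with miR-451a. Its log2 fold changes were -1.10 and -1.02 (limma adjusted p = 3.30e-11 and 6.37e-11). Jak3 and Tyk2 were higher in both comparisons, by 0.65 and 0.78 for Jak3 and by 0.29 and 0.33 for Tyk2 on the log2 scale. Jak1 was 0.08 and 0.06 higher, called with miR-144 alone, and turned to -0.07 and -0.10 after median centring, where it passed as lower with miR-451a.

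Of the 7 STAT factors, 6 were higher and 1, Stat5a, was lower in each comparison. Stat2, which acts in type I interferon signalling, rose from 15.2 ± 1.52 FPKM to 27.8 ± 4.6 and 26.8 ± 5.18. Stat5a, named for being the lower one, was 5.94 FPKM in control, 4.96 with miR-144 and 5.24 with miR-451a on average (log2 fold changes -0.22 and -0.15). Stat6 and Stat3 were higher by 0.27 or less on the log2 scale, and Stat3 did not pass with miR-451a after median centring.

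Cytokine receptors on which SOCS proteins act numbered 29, of which 14 were higher and 7 lower with miR-144, and 16 were higher and 7 lower with miR-451a. Csf2rb2, a beta subunit for IL-3 in mice, fell from 208 ± 16.1 FPKM to 52.2 ± 5.35 and 49.3 ± 3.36 (log2 fold changes -1.98 and -2.06, limma adjusted p = 2.86e-11 and 1.78e-11). Csf2ra, the GM-CSF receptor alpha subunit, had log2 fold changes of -0.38 and -0.44, and Csf3r, the G-CSF receptor, of -0.51 and -0.53. Csf1r, the receptor that sustains macrophages, was higher by 0.78 and 0.79. Csf2rb and Csf2rb2 are near-identical genes, so the split of reads between them is uncertain.

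Of 23 ligands known to induce SOCS genes, 17 were above 0, and 7 were higher and 1 lower with miR-144, and 7 were higher and none lower with miR-451a. Il10, an inducer of Socs3, rose from 0.731 ± 0.132 FPKM to 4.07 ± 0.487 and 3.93 ± 0.179. Tnf rose from 1.62 ± 0.397 to 7.39 ± 1.20 and 6.41 ± 1.09, and Il15 from 2.94 ± 0.267 to 6.85 ± 0.456 and 7.55 ± 0.397. Csf1 was higher by 0.31 and 0.38 on the log2 scale, which did not pass after median centring. Named after their values were seen, Il6 was the lower one, at a mean of 0.0376 FPKM in control and listed at 0 in every miR-144 sample, and Csf2 and Ifng were listed at 0 in every sample.

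Other negative regulators of the pathway numbered 14, of which 9 were higher and 5 lower with miR-144, and 8 were higher and 4 lower with miR-451a. After median centring these splits became 5 and 5, and 5 and 6. Ptpn6, which encodes the phosphatase SHP-1, rose from 53.1 ± 2.61 FPKM to 124 ± 11.6 and 123 ± 8.71. Ptprc (CD45) was higher by 0.70 and 0.71 on the log2 scale, and Cbl, a ubiquitin ligase, fell by 0.21 in each. Named after their values were seen, the other lower ones were Cblb (log2 fold changes -1.64 and -1.69), Dusp3 (-0.54 and -0.60), Ptpn2 (-0.30 and -0.28) and, with miR-144, Pias4 (-0.16). Ptpn1 was higher by 0.25 and 0.21, which did not pass after median centring.

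Of the 8 partners through which the SOCS box forms a ubiquitin ligase, 2 were higher and 1, Rnf7, was lower in each comparison. Rnf7 fell from 42.9 ± 2.16 FPKM to 30.6 ± 2.26 and 30.4 ± 2.27. The higher ones, named after their values were seen, were Cul5 (log2 fold changes 0.19 and 0.21) and Ube2f (0.25 and 0.18). After median centring none was higher, and 5 were lower with miR-144 and 4 with miR-451a. Elob, Nedd8 and Rbx1 did not pass without centring, with log2 fold changes between -0.07 and -0.25.

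Of 8 STAT5 response genes, to which Cish and Socs2 are often counted, 4 were higher and 4 lower in each comparison. The named ones were all among the lower: Pim1, a kinase, had log2 fold changes of -1.44 and -1.52, Igf1 went from 106 ± 6.23 FPKM to 67.1 ± 1.27 and 65.2 ± 1.83, and Id2 and Gadd45g had log2 fold changes of -0.47 to -0.90. Those that were higher, named after their values were seen, were the cyclins Ccnd1 (0.96 and 0.94) and Ccnd2 (0.91 and 0.90), Bcl2l1 (0.75 and 0.72) and Osm (0.33 and 0.35). Of 13 STAT3 response genes, 6 were higher and 4 lower with miR-144, and 7 were higher and 4 lower with miR-451a. Mcl1 was higher by 0.39 and 0.38, Cebpb had log2 fold changes of -1.10 and -1.16, and Junb did not pass (-0.15 and -0.05) but passed as lower after median centring (-0.30 and -0.22). Beside Pim1 and Cebpb the lower ones were Fos (-0.68 and -0.69) and Myc (-0.43 and -0.33), named after their values were seen. The lists share genes, such as Pim1, with each other.

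**Figure D5:**
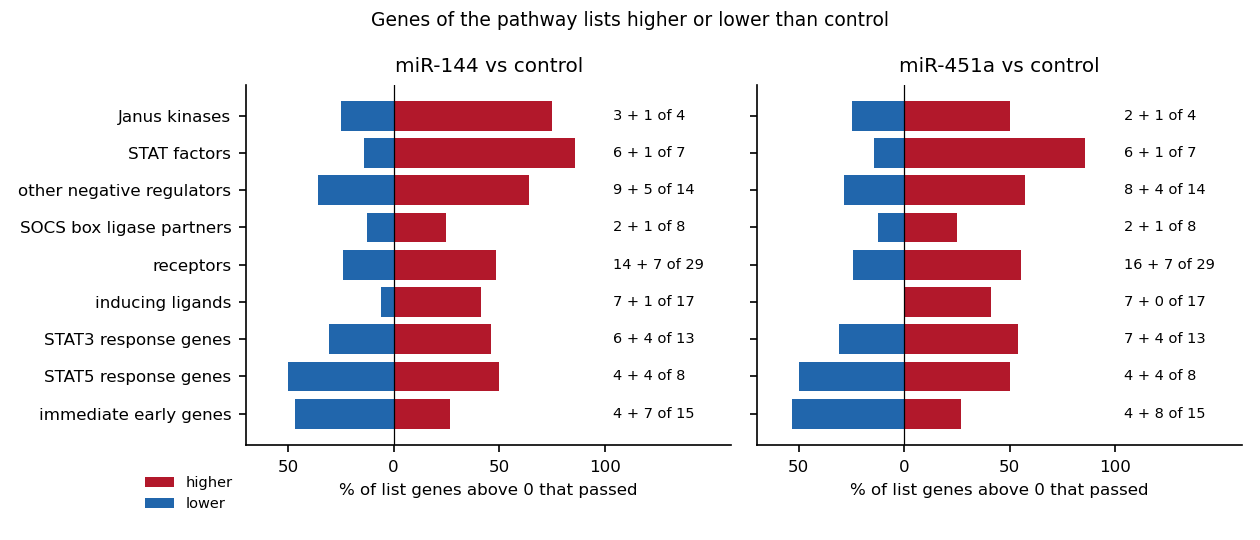
Percent of the genes above 0 in each of 9 lists, the immediate early genes among them, that were higher (right of 0) or lower (left of 0) than control. Panels are for miR-144 and miR-451a, with the counts of higher and lower genes of those above 0 beside each bar. STAT factors stand at 6 higher and 1 lower and STAT5 response genes at 4 and 4 in both panels. Over all genes above 0, 23.1% were higher and 9.65% lower with miR-144, and 24.5% and 9.69% with miR-451a. The counts are without median centring, which moves 57 higher and 29 lower to 47 and 35 with miR-144.

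Other measures moved with the groups beside these members. Of 15 immediate early genes, which tissue dissociation can raise, 4 were higher and 7 lower with miR-144, and 4 were higher and 8 lower with miR-451a. Atf3 fell from 222 ± 4.99 FPKM to 67.7 ± 4.03 and 60.7 ± 4.51, and Ier3, Jun and Zfp36 were lower too. The higher ones, named after their values were seen, were Nr4a1, Hspb1, Ier2 and Btg2, with log2 fold changes of 0.72 to 1.05. Summed FPKM of 9 macrophage markers, mostly Lyz2, ranged from 10216 to 11141 in control, 18162 to 19732 with miR-144 and 17985 to 18914 with miR-451a. In each comparison 7 of these genes were higher and 1, Cd68, was lower. Itgam, which encodes CD11b, is listed under 2 identifiers and is uncertain. Of 5 Kupffer cell markers, Clec4f was listed at 0 in all samples, and the sum, mostly Cd5l, was 5.42 to 6.08 in control and 22.6 to 55.2 in the miRNA groups. Fibroblast markers summed to 103 to 128 FPKM in control and 136 to 223 in the miRNA groups, and 6 neutrophil markers, almost all of it Csf3r, to 65.0 to 79.2 and 44.1 to 53.2. The sum of 4 alveolar and peritoneal macrophage markers, mostly Pparg, had a median of 40.3 in control, 9.41 in the miR-144 group and 9.38 in the miR-451a group, and that of 3 monocyte markers had medians of 3.57, 10.3 and 8.30. Smaller sums moved too. From control to the miRNA groups, eosinophil and mast cell markers went from 2.5 to 3.04 down to 0.772 to 1.31, hepatoma and epithelial markers from 0.622 to 0.758 down to 0.0753 to 0.240, B cell markers from 0.138 to 0.375 up to 1.11 to 1.73 and endothelial markers from 3.70 to 4.29 up to 4.65 to 5.93, all without overlap. The eosinophil and mast cell sum followed Siglecf, while Kit, at most 0.101 FPKM in any sample, was higher in both comparisons but not with miR-451a after median centring (limma adjusted p = 0.0555). The hepatoma and epithelial sum followed Cdh1, with means of 0.469 FPKM in control, 0.00549 with miR-144 and 0.0111 with miR-451a. Afp did not pass (limma adjusted p = 0.214 and 0.231). Dendritic cell markers (0.234 to 0.295 and 0.272 to 0.568) and T and NK cell markers (0.271 to 0.473 and 0.0854 to 0.294) overlapped in part. The sum of 2 cycling cell markers was 9.47 to 10.6 in control, 7.31 to 8.80 with miR-144 and 7.82 to 11.3 with miR-451a, so that the miR-144 samples alone lay apart from control. Of these, Mki67 was lower in both comparisons and Top2a was higher with miR-451a, a call lost after median centring (limma adjusted p = 0.185). All 5 hepatocyte markers were listed at 0, as were Cd3e, Cd3g and Ncr1 of T and NK cells and Krt8, Krt18 and Epcam of epithelial cells. The part of these measures in the changes of the SOCS family was not tested.

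Genes whose values varied most like a member within groups were sought among expressed genes by Pearson r of log2(FPKM + 1) deviations from group means over 15 samples, in which both genes of a pair come from the same library and share its depth. For Cish they were Irf1 (r = 0.88), Retnla (0.87) and Eef1a2 (0.84), for Socs1 Elob (0.91), Als2cl (0.86) and Sipa1l3 (0.82), and for Socs3 Pgm3 (0.93), AU040320 (0.92) and Fam8a1 (0.91). For Socs4 they were C1galt1 (0.90), the unnamed ENSMUSG00000116048 (0.90) and Zbtb6 (0.86), for Socs5 Zfp442 (0.89), Glo1 (0.87) and Primpol (0.82), and for Socs7 Pvr (0.90), Tvp23b (0.80) and Tnfrsf23 (0.79). For Socs6 they were Aph1b (0.87), P2ry2 (0.87) and Rwdd1 (0.82), and P2ry2 was at 6.65 FPKM in control sample 4, above its highest value of 3.44 elsewhere. Between the 7 expressed members, the same r ranged from -0.43 (Socs5 and Cish) to 0.45 (Socs3 and Socs5). The values for Cish rest mainly on the control samples, which hold 82.2% of its squared deviations, and Retnla was listed at 0 in every miRNA sample. These values are descriptions over few samples. The genes named for each member are the highest of 11419 expressed genes, so high r is expected there without any relation.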

How the data were processed

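TAMs were sorted by the authors from orthotopic Hepa1-6 tumors, total RNA was extracted with Trizol, and libraries were sequenced on an Illumina HiSeq instrument. The authors deposited FPKM per gene for 15 samples. The submitters' processing notes name FastQC 0.11.2, STAR and StringTie. The genome build, annotation and strandedness are not given in the sources used here.

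Groups and sample numbers come from the labels. FPKM values were used as deposited, since they are not counts and count models were not used. limma 3.58.1 in R 4.3.3 was fitted to log2(FPKM + 1) in a single model of the 3 groups, with a trend of variance on mean and no filter beyond a value above 0 in at least 1 sample. Benjamini-Hochberg adjustment covered 29540 genes. Depth, transcript lengths and shared 50-base stretches were computed in Python 3.11.15 (with pandas 2.3.3 and numpy 2.4.6) from GENCODE M21, which holds 99.67% of the identifiers, and plots used matplotlib 3.10.9. The fit was tested on simulated data. Beyond the members, named genes were the up to 4 genes of each list with the highest mean and the 3 genes most like each member with a mean of at least 1 FPKM. Members and lists were chosen with earlier results of these data known. Alternatives were a pseudocount of 0.1, minimum means of 0.1 and 1 FPKM, median centring, quantile normalization, TPM, a replicate block, no trend, a fit of 2 groups, a minimum log2 fold change of 1 and each sample left out in turn. A fit without the 2 samples high in Socs6 was added after seeing the data. Counts over all lists include 1 response gene list that is not reported here.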

Additional observations from a re-analysis of the deposited data

Results flagged for a closer look

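Socs6 stood apart in 2 samples. Control sample 4 was at 8.68 FPKM, where the nearest control sample was at 3.64, and the gap was 0.900 of the range of the group. Sample 5 of the miR-144 group was at 7.01 FPKM, where the nearest was at 3.87, a gap of 0.715 of the range. Dixon's critical value for 5 samples is 0.710. Of 24 groups of samples tested, 2 held such a sample, and chance alone gives about 1 in 20, or 1.2.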

How the results depend on the processing

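Each result was recomputed under 25 other settings (24 for Socs2, which a minimum mean of 1 FPKM removes). Counts of genes called were also recomputed with a minimum log2 fold change of 1. Cish, Socs1, Socs2, Socs3 and Socs7 kept their direction and stayed past the threshold in both comparisons with control under all of the 25 settings (24 for Socs2). With a pseudocount of 0.1 the log2 fold change of Cish moved to -5.09 and -5.20 and that of Socs1 to -3.84 and -3.77. Leaving out each sample in turn gave 6 to 7 members called with miR-144, 5 to 6 with miR-451a and 0 between the miRNA groups, and 79 to 86 and 84 to 89 of the list genes. A minimum log2 fold change of 1 left 2 members in each comparison, Cish and Socs1, and 23 and 27 of the 86 list genes, since it removes smaller changes. Samples with the same replicate number had weakly correlated deviations (means -0.01, 0.14 and 0.10). Samples with different numbers were not compared, so these values cannot decide whether the numbers pair the samples. With a replicate block 6, 5 and 0 members and 86 and 88 list genes were called. Socs4 lost its call with the block (adjusted p = 0.0570 and 0.0667).

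Socs4 turned to -0.0272 and -0.0431 under median centring and to -0.0197 and -0.0371 under quantile normalization, and Socs5 with miR-451a to -0.0749 and -0.0739. Socs5 with miR-451a passed with TPM, at 0.16. Socs4 with miR-144 lost its call without control 1, 3, 4 or 5 or miR-144 3 or 4, with values of 0.10 to 0.14 over all samples left out. With miR-451a it lost it without control 1, 3, 4 or 5, miR-144 2 or miR-451a 1, 2 or 4, with values of 0.08 to 0.13, and in the fit of 2 groups. Socs6 with miR-144 turned to 0.0109 with TPM, ranged from -0.230 to 0.187 with a sample left out (0.187 without control 4) and was 0.00630 without both high samples. With miR-451a it ranged from -0.306 to 0.00630, at 0.00630 without control 4 and without both high samples. The causes were not tested.

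Between the miRNA groups, changes of sign concerned values near 0 that passed no test. With a sample left out the ranges were -0.0344 to 0.00506 for Cish, -0.0110 to 0.0601 for Socs1, -0.0205 to 0.0320 for Socs2, -0.0260 to 0.0124 for Socs4, -0.286 to 2.45e-06 for Socs6 and -0.0244 to 0.0241 for Socs7. Socs4 was 0.00587 with TPM, and Socs7 was -0.00661 under median centring and -0.00535 under quantile normalization. Without both high samples Socs1 was -0.000679 and Socs6 2.45e-06. Depth limits Cish most, since its miRNA samples hold at most 9.99 implied fragments.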
